A study of Mus musculus with 924 samples.

Results

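The CA3 and CA2 pyramidal marker genes are 10 genes named for the principal neurons of those 2 hippocampal fields: Spock1, Pvrl3, Trps1, Plagl1, Bok, Coch and Homer3 for CA3, and Amigo2, Rgs14 and Map3k15 for CA2. They were taken by name from the 25392 genes of the deposited expression table, and all 10 were found in it. The table holds 924 single nuclei from mouse hippocampus, each sorted into a well and sequenced by a modified Smart-seq2 protocol. Nuclei of C57BL/6 mice aged 12 weeks came from microdissected dentate gyrus (DG, 305 nuclei), CA1 (99 nuclei) and CA2/3 (117 nuclei). C57BL/6 mice aged 4 weeks gave 113 nuclei and C57BL/6 mice aged 2 years gave 135. The titles of 4-week preparation 1 (35 nuclei) and 2-year preparation 2 (72 nuclei) name DG, and those of 4-week preparation 2 (78 nuclei) and 2-year preparation 1 (63 nuclei) name no region. Mice of 12 weeks carrying vGAT-Cre (Slc32a1tm2(cre)Lowl), in which a Cre-dependent AAV marked the nuclei of Cre-expressing cells, gave 133 sorted nuclei from DG and 22 from CA. Those labelled nuclei enter no comparison between regions or ages.

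Information in the hippocampal circuit passes from granule cells of the dentate gyrus to CA3 pyramidal neurons over the mossy fibres, and from CA3 to CA1. CA2 is a narrow field between CA3 and CA1 whose pyramidal neurons are known for weak synaptic plasticity at their inputs from CA3 and for a part in social memory. Rgs14, a scaffold that regulates G protein and Ras signalling, is best known as a CA2 protein that restrains this plasticity, and Amigo2, a leucine-rich repeat adhesion protein, is a common CA2 label. The CA3 members have no common function: they include matrix and adhesion proteins, transcription factors, a cell death regulator and a synaptic scaffold.

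Nuclei of 1 group whose titles share a number were taken as 1 preparation. That gave 4 preparations of DG (numbers 1 to 4), 2 of CA1 (1 and 3), 2 of CA2/3 (1 and 3), and 2 at each other age. The labels do not say that a number stands for 1 animal, so every p-value below reflects only how far preparations differ among themselves, possibly for technical reasons. The nuclei held a median of 4883 detected genes (range 2022 to 8008), where detected means a value above 1 on the authors' TPM-like scale. The medians in the region preparations ran from 4725 to 6140 genes, with CA2/3 preparation 1 at the top. The clustering left the members out and gave 166 pyramidal-like, 112 GABAergic-like and 51 astrocyte-like nuclei, 13 microglia-like ones, 17 each that resembled oligodendrocytes and their precursors, and granule-like nuclei as the largest class. The CA1 and CA2/3 preparations held 26 to 38 pyramidal-like nuclei each. DG preparation 1 stood apart from the other DG preparations: it held 19 pyramidal-like nuclei, 9 and 10 from its 2 plates, against 0, 1 and 3 in preparations 2, 3 and 4.

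The promoter sequences of the members found higher in CA2/3 than in DG below are printed here because these genes moved together between the regions. Each is the 250 bases before 1 RefSeq start of the gene, build GRCm38.p6, read 5′ to 3′ on the gene's own strand. Spock1 lies on the minus strand with its window at chr13:57908333-57908582, Pvrl3 (now named Nectin3) on the minus strand at chr16:46496968-46497217, Plagl1 on the plus strand at chr10:13090582-13090831, Bok on the plus strand at chr1:93685325-93685574 and Amigo2 on the minus strand at chr15:97247288-97247537. The Plagl1 and Pvrl3 windows lie inside the gene spans given below, so their starts are not the outermost ones. The Bok start is not that of a GENCODE transcript of this build. Capitals mark the GC box GGGCGG and the E-box CAGATG, each on either strand, so that they also read CCGCCC and CATCTG.
Spock1: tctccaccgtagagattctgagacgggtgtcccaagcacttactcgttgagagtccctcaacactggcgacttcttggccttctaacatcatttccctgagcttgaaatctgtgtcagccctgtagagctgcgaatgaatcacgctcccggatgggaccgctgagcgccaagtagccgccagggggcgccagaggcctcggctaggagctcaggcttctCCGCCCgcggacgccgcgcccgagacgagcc
Pvrl3: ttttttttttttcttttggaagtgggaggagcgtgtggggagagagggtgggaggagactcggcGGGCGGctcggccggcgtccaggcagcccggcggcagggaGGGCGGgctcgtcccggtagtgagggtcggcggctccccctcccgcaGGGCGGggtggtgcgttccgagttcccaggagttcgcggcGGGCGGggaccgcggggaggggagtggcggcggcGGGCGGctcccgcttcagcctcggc
Plagl1: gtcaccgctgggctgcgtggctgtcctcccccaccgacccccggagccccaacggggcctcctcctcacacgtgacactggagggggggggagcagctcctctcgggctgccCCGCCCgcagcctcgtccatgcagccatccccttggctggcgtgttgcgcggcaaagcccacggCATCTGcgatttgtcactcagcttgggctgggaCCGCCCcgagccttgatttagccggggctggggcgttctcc
Bok: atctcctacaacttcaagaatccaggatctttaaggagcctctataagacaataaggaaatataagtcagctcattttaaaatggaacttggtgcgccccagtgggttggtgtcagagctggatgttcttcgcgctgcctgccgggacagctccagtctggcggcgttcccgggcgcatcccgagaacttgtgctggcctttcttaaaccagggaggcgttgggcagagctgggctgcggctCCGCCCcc
Amigo2: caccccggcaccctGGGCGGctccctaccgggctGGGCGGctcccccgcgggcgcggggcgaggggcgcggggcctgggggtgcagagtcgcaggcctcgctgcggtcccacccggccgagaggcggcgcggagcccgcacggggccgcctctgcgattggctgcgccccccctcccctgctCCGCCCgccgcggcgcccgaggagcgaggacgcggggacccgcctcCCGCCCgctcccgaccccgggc
Each of the 5 windows held at least 1 GC box, with 5 in Pvrl3, 4 in Amigo2, 2 in Plagl1, and 1 each in Spock1 and Bok. Of the 32851 promoter windows of the same length in the table, 32.7% held one. The E-box was found only in the Plagl1 window among these 5, 74 bases before the start, and in 14.4% of all windows. None of the 5 held the letters TATAAA on either strand, which 12.4% of all windows did. Their GC content ran from 55.2% (Bok) to 84.0% (Amigo2), beside a median of 52.4% over all windows. The windows of Coch and Homer3 held 3 and 4 GC boxes and no E-box. No windows are shown for Trps1, Rgs14 and Map3k15. A match is only a run of letters, and whether any of them is bound was not measured.

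The first comparison asked how the members differ between the dissected regions. It pooled pyramidal-like with granule-like nuclei as excitatory-like ones. A level is a preparation's average log2(value + 1) across those nuclei. That scale understates changes of low genes, and a lower mean can come from fewer nuclei with the gene or from less of it in each. A gene entered the fit if at least 20% of the nuclei of 1 preparation had it, which 11324 genes did. Of the 10 members 8 passed, Coch and Map3k15 did not, and Amigo2 passed only through its CA2/3 preparations, so the count of called members lends no support by itself. All fold differences are in log2 with the standard error (SE), and the p-values are from limma with Benjamini-Hochberg adjustment over all genes tested.

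CA2/3 nuclei carried higher levels of 5 CA3 members and 1 CA2 member than DG nuclei: Spock1, Pvrl3, Trps1, Plagl1, Bok and Amigo2. These are 6 of the 8 members tested. In this comparison 7.83% of all genes tested were called, 5.91% of all genes tested were called higher in CA2/3, and the median of all genes was 0.42 above 0. Of the 887 genes called 75.4% were higher, a share that moved to 48% with quantile normalization of the preparations and to 39.1% with detected genes as a covariate. Relative to that median each member's difference is smaller by as much. No member was lower. Homer3 and Rgs14 did not pass the test. In 7 of the 8 members tested, every one but Rgs14, both CA2/3 preparations lay above all 4 DG preparations, as did 28.2% of all genes. The libraries also differed in genes detected, with CA2/3 preparation 1 the richest, and DG preparation 1 held pyramidal-like nuclei. The part of either in these values was tested only through the alternatives named below.

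**Figure D1:**
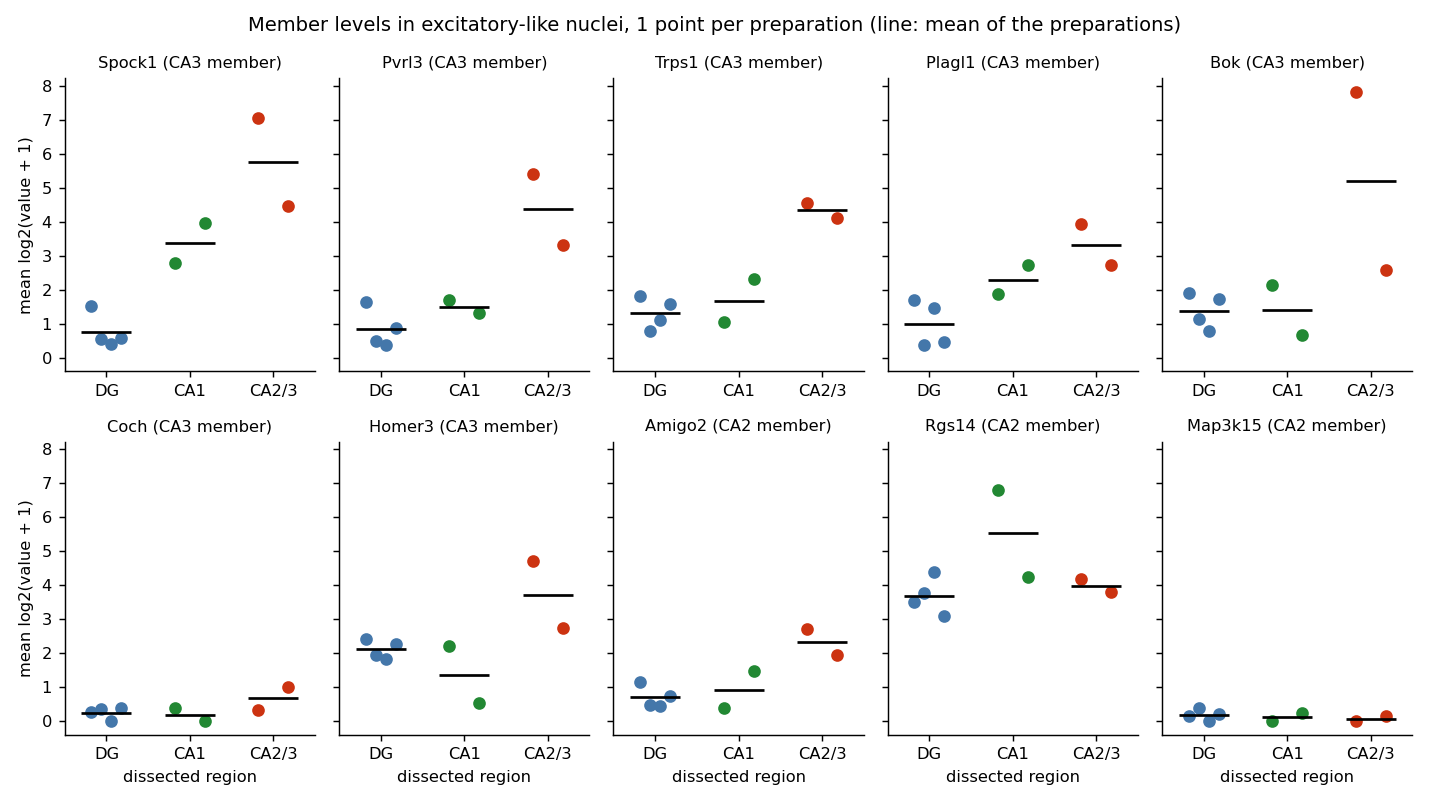
Mean log2(value + 1) of each member (vertical axes) in the excitatory-like nuclei of each preparation, by dissected region (horizontal axes); each point is 1 preparation and each line the mean of a region's preparations. For Spock1 both CA2/3 points (4.47 and 7.06) lie above both CA1 points and all DG points, whereas for Rgs14 both CA1 points (4.25 and 6.81) lie above both CA2/3 points.

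Among the matrix and adhesion proteins, Spock1 (chr13:57421195-57908332, minus strand, in build GRCm38) encodes testican-1, a proteoglycan of the extracellular matrix. Its level was 7.06 and 4.47 in CA2/3 preparations 1 and 3, 2.77 and 3.96 in CA1 preparations 1 and 3, and 1.54, 0.55, 0.41 and 0.57 in DG preparations 1 to 4. The 3 regions did not overlap, and DG preparation 1 was the highest of its group. Spock1 was higher by 5.0 (SE 0.68) in CA2/3 than in DG (limma adjusted p = 0.00116), and it passed under all 18 alternatives tried (adjusted p from 1.97e-05 to 0.0296). It was also higher by 2.60 (SE 0.68) in CA1 than in DG (limma adjusted p = 0.0254), a call that held under 11 of 18 alternatives (adjusted p from 0.00166 to 0.175). It was the only member of 8 called between CA1 and DG, where 11.6% of all genes were called, 81.3% of them higher (52.6% with quantile normalization and 41% with the covariate). Both CA1 preparations lay above all DG preparations for 32.1% of all genes. Pvrl3 (chr16:46387706-46498525, minus strand) encodes nectin-3, an adhesion molecule of cell contacts and synapses. Its level was 5.40 and 3.32 in the CA2/3 preparations, 1.70 and 1.32 in the CA1 preparations, and 1.65, 0.49, 0.39 and 0.89 in DG preparations 1 to 4. CA2/3 stood above both other regions, which overlapped each other. The CA2/3 excess over DG was 3.51 (SE 0.56, limma adjusted p = 0.00253), and it was lost only when the log was taken after averaging (adjusted p = 0.134, the highest of 18 alternatives, the lowest being 9.43e-05). Amigo2 (chr15:97244125-97247287, minus strand) was low throughout, at 2.70 and 1.95 in CA2/3, 0.39 and 1.48 in CA1, and 1.15, 0.50, 0.44 and 0.76 in DG preparations 1 to 4. Its CA2/3 excess over DG was 1.61 (SE 0.40, limma adjusted p = 0.0266) and held under 11 of 18 alternatives (adjusted p from 0.00187 to 0.242). The reads of Amigo2 may include some of Pced1b, whose exons overlap it on the other strand, since no strand information is stated. Coch (chr12:51593341-51605771, plus strand), which encodes the matrix protein cochlin, lay between 0 and 1.03 in all 8 preparations and was not tested.

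The transcription factors among the members are Trps1 (chr15:50654752-50890463, minus strand), a zinc finger repressor of the GATA type, and Plagl1 (chr10:13060504-13131694, plus strand), an imprinted zinc finger gene also called Zac1. Trps1 read 4.56 and 4.12 in CA2/3, 1.04 and 2.31 in CA1, and 1.83, 0.80, 1.12 and 1.58 in DG preparations 1 to 4. The 2 CA2/3 values were close to each other and clear of both other regions. The excess over DG was 3.01 (SE 0.50, limma adjusted p = 0.00309), lost in 1 of 18 alternatives, the log after averaging (adjusted p from 0.000113 to 0.184). Plagl1 read 3.94 and 2.73 in CA2/3, 1.88 and 2.72 in CA1, and 1.69, 0.37, 1.46 and 0.47 in DG preparations 1 to 4. Its lower CA2/3 value all but equalled its higher CA1 value. The excess over DG was 2.33 (SE 0.53, limma adjusted p = 0.0176), and 12 of 18 alternatives kept the call (adjusted p from 0.000833 to 0.155). Without CA2/3 preparation 1 it was 1.73 (adjusted p = 0.119).

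Bok (chr1:93685660-93695764, plus strand), a BCL2 family protein that can drive cell death at the mitochondrion, differed most between preparations of 1 region. It read 7.82 in CA2/3 preparation 1 and 2.58 in CA2/3 preparation 3, against 2.15 and 0.69 in CA1 and 1.90, 1.14, 0.78 and 1.73 in DG preparations 1 to 4. The Bok excess of CA2/3 over DG was 3.81 (SE 1.01, limma adjusted p = 0.0361), and 10 of 18 alternatives kept the call (adjusted p from 6.71e-05 to 0.372). It fell to 1.19 without CA2/3 preparation 1 and was 6.43 without CA2/3 preparation 3, so its size depended on which of them was kept. The call was lost in 5 of the fits that left 1 preparation out. Homer3 (chr8:70282827-70294361, plus strand), a postsynaptic scaffold that binds group I metabotropic glutamate receptors, read 4.73 and 2.73 in CA2/3, 2.21 and 0.54 in CA1, and 1.85 to 2.43 in DG. It differed from DG by 1.60 (SE 0.61, limma adjusted p = 0.123) and passed in 2 of 18 alternatives, among them the fit restricted to pyramidal-like CA and granule-like DG nuclei (2.35, adjusted p = 0.0117; all alternatives 0.0117 to 0.889). Exons of Ddx49 overlap Homer3 on the other strand.

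Rgs14 (chr13:55369732-55384687, plus strand) had its highest value in a CA1 preparation. Its level was 4.17 and 3.81 in CA2/3, 6.81 and 4.25 in CA1, and 3.52, 3.77, 4.39 and 3.11 in DG preparations 1 to 4. The CA2/3 values lay within the range of the DG values, and both CA1 values lay above both CA2/3 values. CA2/3 differed from DG by 0.29 (SE 0.71, limma adjusted p = 0.838), with a sign that changed in 5 of 18 alternatives. CA1 differed from DG by 1.83 (SE 0.71, limma adjusted p = 0.108), and 1 of 18 alternatives called it (adjusted p from 0.0220 to 0.688). Map3k15 (chrX:159988433-160123351, plus strand), the kinase ASK3 of the stress-activated MAP kinase pathways, was found in 18 of 924 nuclei and read at most 0.40 in any of the 8 region preparations. Exons of Pdha1 overlap it on the other strand.

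Set directly against CA1, no member passed the test in CA2/3. In that comparison limma called 0.168% of all genes tested, 3 of 19 of them higher in CA2/3 (9 of 30 with quantile normalization, 75 of 162 with the covariate), and 900 genes (7.95%) had an unadjusted p under 0.05. The differences were 3.78 (SE 1.17) for Bok, 2.85 (SE 0.65) for Pvrl3, 2.67 (SE 0.58) for Trps1, 2.40 (SE 0.79) for Spock1, 2.36 (SE 0.71) for Homer3, 1.39 (SE 0.46) for Amigo2, 1.03 (SE 0.61) for Plagl1 and -1.54 (SE 0.82) for Rgs14, with adjusted p from 0.110 (Trps1) to 0.732 (Plagl1). In all of these but Rgs14 both CA2/3 preparations lay above both CA1 preparations, as did 11.7% of all genes tested. Rgs14 was lower in both CA2/3 preparations than in both CA1 preparations. With 2 preparations a region the calls moved with the setting: Pvrl3 passed in 5 of 18 alternatives, and Bok, Trps1 and Homer3 in 3 each. Over pyramidal-like CA and granule-like DG nuclei alone, 3 members were called higher, where 0.417% of all genes tested were called. Without CA2/3 preparation 3, 4 members were called higher: Bok (6.40, limma adjusted p = 0.00375), Pvrl3 (3.90, adjusted p = 0.0140), Spock1 (3.69, adjusted p = 0.0281) and Homer3 (3.35, adjusted p = 0.0449). Without CA1 preparation 3, Trps1 was called (adjusted p = 0.0395).

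Other genes known for CA3 were also higher in CA2/3 than in DG. Of 10 other CA3 genes 9 were tested, and 7 were higher in CA2/3 than in DG: Grik4, a kainate receptor subunit; Kcnq5, a potassium channel subunit; Kit, a receptor tyrosine kinase; and Socs2, Cdh24, Rnf182 and Nnat. The median difference of those tested was 3.16, beside 3.26 for the 6 CA3 members tested and 0.42 for all genes. Socs2, an inhibitor of cytokine signalling, differed by 5.70 (SE 0.72, limma adjusted p = 0.000836) and Kit by 5.80 (SE 0.80, limma adjusted p = 0.00118). Socs2, Kit and Nnat were also higher in CA1 than in DG, by 3.32 (SE 0.72, limma adjusted p = 0.0101), 4.73 (SE 0.80, adjusted p = 0.00264) and 2.53 (SE 0.76, adjusted p = 0.0444). Of 12 other CA2 genes 7 were tested, 3 of them higher than in DG (Necab2, a calcium-binding protein; Oxtr, the oxytocin receptor; and Strip2) and 1 lower. Oxtr passed the filter only through CA2/3 preparation 1, where it was high, so its call lends no support. The lower one was Pcp4, a calmodulin regulator, at 3.63 in CA2/3 and 9.74 in DG. It differed by -6.11 (SE 0.88, limma adjusted p = 0.00148). Against CA1 neither list had a call in either direction. Among CA1 markers, Mpped1 (-4.96, SE 0.60, limma adjusted p = 0.00533) and Nov (-2.56, SE 0.47, limma adjusted p = 0.0490) were lower in CA2/3 than in CA1, and Mpped1, Man1a and Dcn were higher in CA2/3 than in DG. Relatives and binding partners of the members, such as other testicans, nectins, Homer proteins and ASK kinases, were called in 0 of 34 tested in CA2/3 against DG and in 0 of 34 against CA1.

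Most members were also detected outside pyramidal nuclei. The classes compared here leave out the pyramidal-like nuclei of DG, which are described below. Among these classes, Pvrl3, Bok, Homer3 and Amigo2 had their highest share of nuclei in the CA2/3 pyramidal-like class. Bok was detected in 42 of 71 of those nuclei (59.2%, 95% Wilson interval 47.5% to 69.8%). Next among these classes were oligodendrocyte-like nuclei (23.5%), and 8 of 60 pyramidal-like nuclei of CA1 had Bok (13.3%). Spock1 was detected in 52 of 71 CA2/3 pyramidal-like nuclei (73.2%) and in 31 of 40 GABAergic-like nuclei from the unsorted 12-week preparations (77.5%), 2 shares whose intervals overlap. It was found in 26 of 60 CA1 pyramidal-like nuclei (43.3%) and in 16 of 247 granule-like nuclei of DG (6.48%). Trps1 was detected in 35 of 51 astrocyte-like nuclei (68.6%) and 40 of 71 CA2/3 pyramidal-like nuclei (56.3%), and Pvrl3 in 38 of 71 CA2/3 pyramidal-like nuclei (53.5%), 9 of 17 oligodendrocyte precursor-like nuclei (52.9%) and 22 of 51 astrocyte-like nuclei (43.1%). The astrocyte-like nuclei reached these shares with a median of 3464 detected genes, against 5764 in the CA2/3 pyramidal-like nuclei. The astrocyte-like, oligodendrocyte-like and precursor-like nuclei were pooled over all preparations, and so include sorted nuclei and other ages. Sorted DG preparation 1 alone gave 15 of the 51 astrocyte-like nuclei. The part of sorting and age in these shares was not tested. Rgs14 was detected in 35 of 60 CA1 pyramidal-like nuclei (58.3%), 31 of 71 CA2/3 pyramidal-like nuclei (43.7%) and 106 of 247 granule-like nuclei of DG (42.9%), but in 2 of 40 GABAergic-like nuclei (5%). The order of the excitatory classes for Rgs14 was CA1, CA2/3, DG, and the intervals of neighbours overlapped. All intervals cover counting error only. Raw read counts are not part of the table, so nuclei could not be brought to 1 depth.

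**Figure D2:**
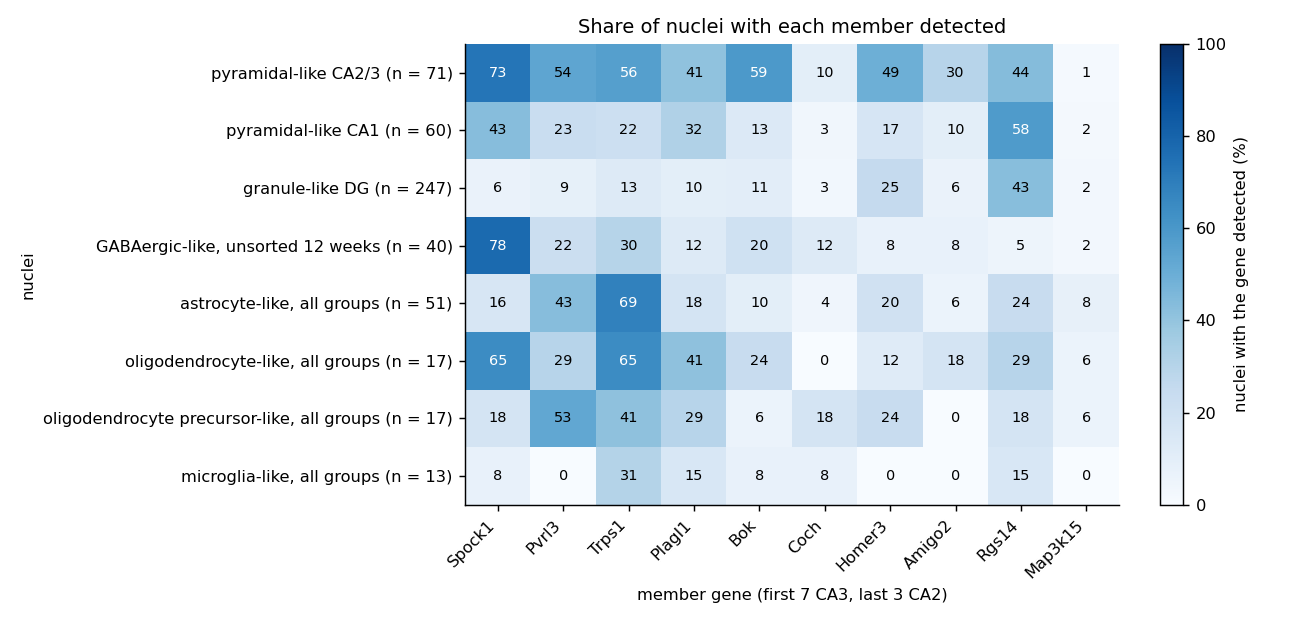
Share of nuclei (colour and number, in percent) in which each member (columns) was detected above a value of 1, by class of nucleus (rows, with the number of nuclei). Among the rows shown, which leave out the pyramidal-like nuclei of DG, Spock1 is most frequent in GABAergic-like nuclei (77.5%) and CA2/3 pyramidal-like nuclei (73.2%). Rgs14 is most frequent among these rows in CA1 pyramidal-like nuclei (58.3%).

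The sorted GABAergic-like nuclei gave other Spock1 shares than the unsorted ones. Spock1 was detected in 54.1%, 23.1% and 22.2% of the GABAergic-like nuclei of sorted DG preparations 1 and 2 and of the sorted CA preparation, at median depths of 5204, 4474 and 3816 genes. The unsorted GABAergic-like nuclei of DG and of CA gave 84.2% and 71.4% at 4683 and 5055 genes. The sorted mice also carry another strain label and received the virus, and these factors cannot be told apart.

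The members were then counted within single nuclei. Pyramidal-like nuclei of CA2/3 often held several CA3 members at once: 47 of 71 (66.2%, interval 54.6% to 76.1%) had at least 3 of the 7, against 16 of 60 in CA1 (26.7%, interval 17.1% to 39%) and 6 of 247 granule-like nuclei of DG (2.43%, interval 1.12% to 5.20%). The share was 78.9% in the 19 pyramidal-like nuclei of DG preparation 1. It was 20% in the unsorted GABAergic-like nuclei and 21.6% in the astrocyte-like ones of all preparations. By preparation the shares were 73.7% and 57.6% in CA2/3 and 29.4% and 23.1% in CA1. At least 5 CA3 members were found in 27 of 71 CA2/3 nuclei (20 of 38 in preparation 1 and 7 of 33 in preparation 3) and in 0 of 60 CA1 nuclei, which allows a share of up to 5%. With 2 preparations a region no test was run on these shares. The CA2/3 and CA1 nuclei had similar depth, with medians of 5764 and 5878 detected genes, and within CA1 the 16 nuclei with at least 3 CA3 members were deeper, at 6788.

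**Figure D3:**
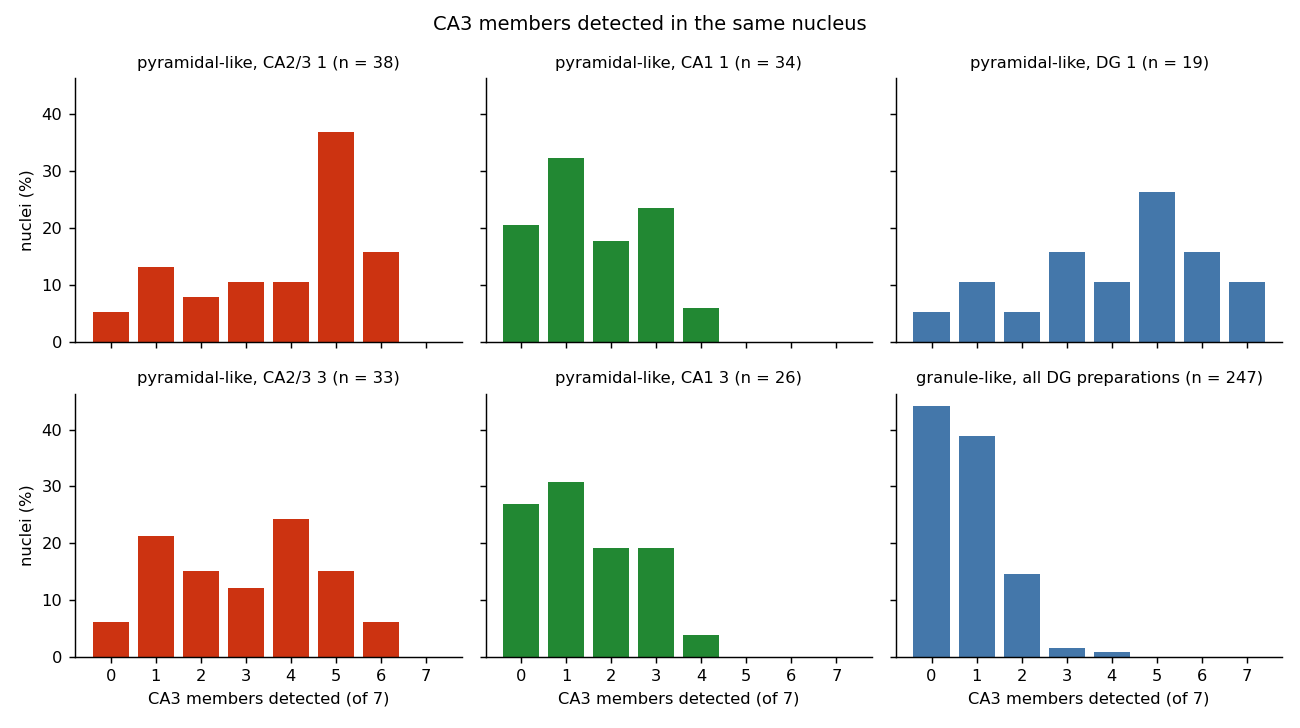
Percent of nuclei (vertical axes) by the number of CA3 members detected in the same nucleus (horizontal axes, of 7), in the pyramidal-like nuclei of 5 preparations and the granule-like nuclei of all DG preparations. Nuclei with 5 or more members appear in both CA2/3 preparations and in DG preparation 1 but in neither CA1 preparation.

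Pairs of CA3 members met in the same CA2/3 pyramidal-like nucleus somewhat more often than the product of their shares. That product was taken within each preparation and summed over the 2 preparations. The ratio of the count seen to that product was above 1 for 17 of 21 pairs, with a median of 1.14 and a range from 0.62 to 1.46. Pvrl3 and Homer3 met in 28 of 71 nuclei where the product gives 19.2, and Pvrl3 and Trps1 in 30 where it gives 21.3. Pairs of 1 CA3 member with Amigo2 or Rgs14 had a median ratio of 1.01 over 14 pairs. Bok and Rgs14 met in 15 nuclei where the product gives 19.4, the lowest ratio of those 14 pairs (0.77). In pyramidal-like nuclei of CA1, CA3 pairs had a median ratio of 1.16, with 8 of 15 pairs above 1. In granule-like nuclei of DG it was 1.09, with 10 of 16 above 1. Pairs of a CA3 with a CA2 member had medians of 1.08 in CA1 and 1.24 in DG. The median excess of CA3 pairs was thus not particular to CA2/3. The ratios of a class share its nuclei, their depth and its preparations, and they are given as a description.

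The CA2/3 nuclei that held few CA3 members carried CA1 markers. Of the 71 pyramidal-like nuclei 16 had at most 1 CA3 member. Mpped1, a CA1 marker, was detected in 13 of these 16 (81.2%), in 7 of the 47 nuclei with at least 3 CA3 members (14.9%), and in 51 of the 60 pyramidal-like nuclei of CA1 (85%). Pou3f1, a POU-domain transcription factor, was found in 7 of 16 and 2 of 47, and Nov, a matricellular protein, in 7 of 16 and 5 of 47. Over the whole list of 8 CA1 markers, the 16 nuclei held a median of 4 and the 47 nuclei a median of 1, beside 5 in CA1. By preparation the medians in nuclei with at most 1 CA3 member were 6 (7 nuclei of preparation 1) and 3 (9 nuclei of preparation 3). Other CA3 genes went the other way, with a median of 4 of 10 detected in the 16 nuclei and 7 in the 47. Depth differed between these sets, at medians of 4848 and 5992 genes, and its part was not tested. The sets were chosen by the members, so the values are a description. In CA1 itself the 16 nuclei with at least 3 CA3 members held Mpped1 in 14 cases and a median of 5.5 CA1 markers.

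The 19 pyramidal-like nuclei of DG preparation 1 also carried CA3 members, several at higher shares than in CA2/3. Spock1, Pvrl3 and Trps1 were each detected in 15 of 19 (78.9%), Plagl1 in 13, and Bok and Amigo2 in 10 each, while Rgs14 was found in 3. The CA2/3 pyramidal-like shares were 73.2% for Spock1, 53.5% for Pvrl3, 56.3% for Trps1 and 40.8% for Plagl1. For Bok, Amigo2 and Rgs14 they were 59.2%, 29.6% and 43.7%. At least 3 CA3 members were present in 15 of 19 (78.9%, interval 56.7% to 91.5%), and 2 nuclei held all 7, which no CA2/3 nucleus did. Mpped1 was detected in 5 of the 19. Calb2 is 1 of the listed markers of mossy cells, which lie in the hilus of the dentate gyrus. It was detected in 6 of the 19 (31.6%), against 1 of 71 in CA2/3 and 2 of 60 in CA1. The others listed were Drd2, Calcrl, Csf2rb2 and Nmb, whose shares in the 19 nuclei are not given here. In each pyramidal-like cluster, over all preparations, 1 marker of the list was detected in at least 30% of nuclei. Whether the 19 nuclei are CA3 neurons or mossy cells was not tested. Without DG preparation 1 the excess of CA2/3 over DG was 5.26 for Spock1, 3.77 for Pvrl3, 3.18 for Trps1, 2.56 for Plagl1, 3.98 for Bok and 1.76 for Amigo2, all larger than with it. All of these but Bok (limma adjusted p = 0.0691) still passed.

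By these 3 genes, nuclei with CA2 members did not part from nuclei with CA3 members. The 3 genes cannot decide whether CA2 neurons form a set of their own. Map3k15 was almost absent, and Rgs14 was as frequent in granule-like nuclei of DG (42.9%) as in CA2/3 pyramidal-like nuclei (43.7%). No pyramidal-like nucleus held all 3 CA2 members, since Map3k15 was detected in 1 of 71 in CA2/3 and 1 of 60 in CA1, and 0 of 71 allows a share of up to 4.23%. At least 2 were found in 6 of 38 and 5 of 33 nuclei of the CA2/3 preparations, 15.5% of the 71 (interval 8.88% to 25.7%). CA1 had 3 of 60 such nuclei (5%, interval 1.71% to 13.7%) and the granule-like nuclei of DG 9 of 247 (3.64%). In all 11 of the CA2/3 nuclei the pair was Amigo2 with Rgs14, which the product of their shares, summed over the preparations as above, puts at 9.27. These 11 nuclei held a median of 3 CA3 members and the 29 nuclei with no CA2 member a median of 4. Only 1 of the 11 had at most 1 CA3 member, and 5 had 5 or 6. Of the 42 CA2/3 nuclei with any CA2 member, 10 had at most 1 CA3 member.

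**Figure D4:**
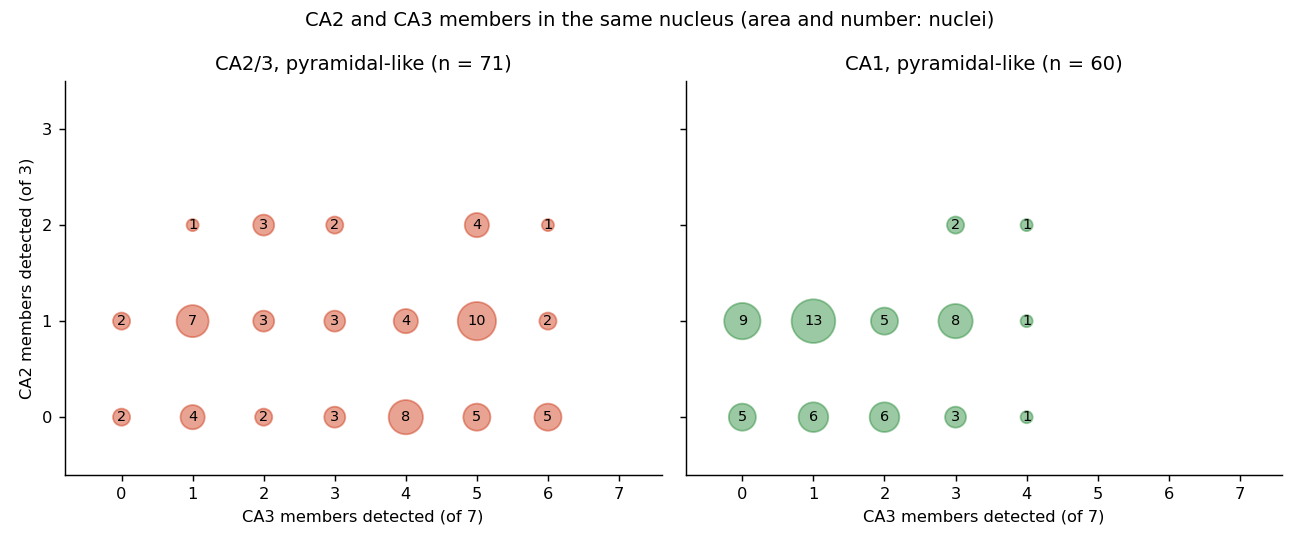
Number of CA2 members (vertical axes, of 3) against number of CA3 members (horizontal axes, of 7) detected in each pyramidal-like nucleus of CA2/3 (left) and CA1 (right); the area of a circle and the number in it give the nuclei. In CA2/3 the 11 nuclei with 2 CA2 members spread from 1 to 6 CA3 members and form no group with few of them.

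Compared as 2 classes within each CA2/3 preparation (6 against 13 nuclei and 5 against 16), nuclei with at least 2 CA2 members differed from those with none in 1 of 12845 genes by limma, or 0.00779%, while 857 genes (6.67%) had an unadjusted p under 0.05. The gene was Cpne7, a copine (a calcium-dependent membrane-binding protein) that also leads both pyramidal-like clusters. Its level was 14.3 and 13.5 in the CA2-type nuclei and 12.5 and 9.18 in the others of preparations 1 and 3. The difference was 3.03 (SE 0.45, limma adjusted p = 0.00243). The fit had 1 mean per class in each preparation, so this SE rests largely on the spread of other genes. The Cpne7 gap was wider in preparation 3 than in preparation 1, so the p-value of this gene is uncertain. The CA2-type nuclei also had more genes detected, with means of 6432 against 5821 and 5767 against 4851, and the median of all genes lay 0.52 above 0. None of the 7 CA3 members was called, 0 were higher in both preparations, and 2 lay above the median of all genes. Bok differed by -3.00 (SE 1.45, limma adjusted p = 0.743) and was the only one of them lower by unadjusted limma p under 0.05. Other CA2 genes were higher in 5 of 9 tested in both preparations, as were 35.1% of all genes, and none passed the adjusted test. Of these 9 genes 8 lay above the median of all genes, with a median difference of 1.97. By unadjusted limma p under 0.05, 4 were higher and 0 lower. A gene could enter this fit through the CA2-type nuclei alone, so these counts lend no support by themselves. Markers of granule cells moved with this split in preparation 3: its CA2-type nuclei held a mean of 4.8 of 12 granule markers (highest 9), against 1.81 in the nuclei with no CA2 member, while preparation 1 gave 1.5 and 1.15. The part of these markers in the values was not tested. Necab2, at 9.99 and 5.85 against 5.72 and 2.18, differed by 3.97 (SE 1.31) and Stard5, a lipid transfer protein at 3.97 and 9.90 against 2.78 and 1.77, by 4.66 (SE 1.54), both at a limma adjusted p of 0.572. Necab2 was detected in 9 of the 11 nuclei and in 12 of the 29, and Oxtr in 5 of the 11 and 2 of the 29. Fgf2 and Avpr1b, a vasopressin receptor used as a CA2 label, were detected in none of these nuclei.

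Within the pyramidal-like nuclei of the 4 CA preparations (131 nuclei), the gene whose level correlated most with the mean level of the 7 CA3 members was Cpne4, another copine. It is one of the 10 other CA3 genes, and it did not pass the test in CA2/3 against DG (5.44 against 4.67, limma adjusted p = 0.592). Its mean correlation over the preparations was 0.54, from 0.40 to 0.73, where the median over 11873 genes was 0.09. Ntsr2, Elavl2, Slc2a6 and Trhde followed at 0.47 to 0.49. Ntsr2 is also among the leading genes of the astrocyte-like cluster. For the CA2 members the highest was Kcnip2, a potassium channel partner, at 0.34 (0.23 to 0.47), where the median over all genes was 0.05. Of the other CA2 genes the highest was Stard5 at 0.19. Correlations of this kind share the nuclei and their depth and are given without a test.

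Age was compared in the granule-like nuclei, where only Trps1, Homer3, Pvrl3 and Rgs14 of the 10 members passed the filter on low values. Granule cells keep being born in the young dentate gyrus and mature over weeks. Rgs14 was lower at 4 weeks: 0.94 and 1.52 in the 2 preparations, against 3.98, 3.77, 4.46 and 3.30 in the 12-week DG preparations 1 to 4. At 2 years it read 3.78 and 4.21, within the 12-week range. The 4-week difference was -2.65 (SE 0.55, limma adjusted p = 0.00122), and all 16 alternatives called it (adjusted p from 0.000348 to 0.0465). Rgs14 was thus the only one of the 4 members tested that was called at this age. Of all 10630 genes tested 10.1% were called, and 4.24% were called lower. Of those called 57.9% were higher, against 36.1% with detected genes as a covariate. The share of granule-like nuclei with Rgs14 was 11.1% and 15.9% at 4 weeks and 35.3% to 51.6% at 12 weeks, at medians of 5116 and 4725 detected genes. The part of depth in these shares was not tested beyond the alternatives. Titles of 4-week preparation 2 and 2-year preparation 1 name no region, and the granule-like nuclei of both are taken as they cluster.

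**Figure D5:**
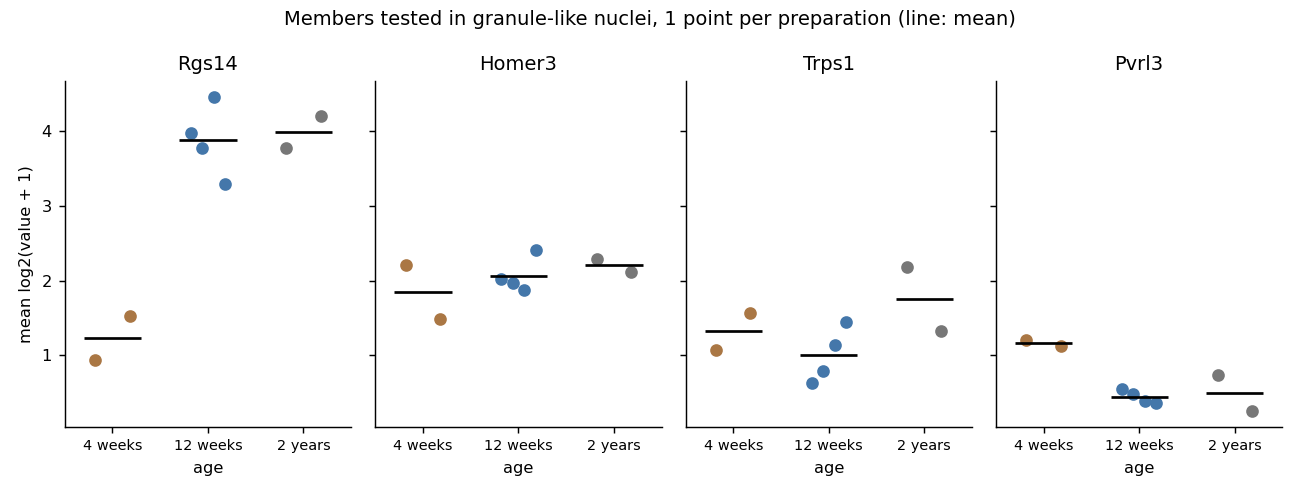
Mean log2(value + 1) of the 4 members tested (vertical axis) in the granule-like nuclei of each preparation, by age (horizontal axes); each point is 1 preparation and each line a mean. For Rgs14 both 4-week points (0.94 and 1.52) lie below all 12-week and 2-year points.

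The other tested members did not pass at 4 weeks. Pvrl3 read 1.21 and 1.13 at 4 weeks and 0.37 to 0.55 at 12 weeks, a difference of 0.72 (SE 0.29, limma adjusted p = 0.107) that was not called in any of 15 alternatives. It passed the filter only through 4-week preparation 1, where it was detected in 22.2% of nuclei, and it was below the filter without that preparation. Amigo2 was below the filter, with levels of 1.43 and 1.03 at 4 weeks and 0.45 to 0.62 at 12 weeks. For both genes the 4-week preparations lay above every 12-week one, as they did for 17.8% of all genes tested. At 2 years no member was called, where limma called 0.141% of all genes, 15 of 10630, and 1169 genes (11%) had an unadjusted p under 0.05. Trps1 came nearest, at 2.19 and 1.32 against 0.63 to 1.44, a difference of 0.76 (SE 0.37, limma adjusted p = 0.453). Of 33 relatives and partners tested at 4 weeks, 1 was higher and 4 were lower, among the latter Rap2a, a small GTPase of the family that Rgs14 binds (-1.88, SE 0.62, limma adjusted p = 0.0485), and Shank1, a scaffold that binds Homer proteins (-2.75, SE 0.63, adjusted p = 0.00354). Of 7 other CA2 genes tested, Necab2 and Ptpn5 were higher at 4 weeks and Stard5 and Nr3c2, the mineralocorticoid receptor, were lower. Nr3c2 differed by -4.11 (SE 0.66, limma adjusted p = 5.45e-05).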

How the data were processed

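Single nuclei from RNA-preserved microdissections were sorted into plates and sequenced by a modified Smart-seq2 protocol, per the labels' protocols. The submitters' processing notes name Bowtie2, RSEM 1.27 and the builds mm10 and GRCm38, with no roles given. The authors deposited 1 table of 25392 genes by 924 nuclei, named as log TPM. The deposited values are on a natural log scale, ln(value + 1), as the spacing of low values shows. Back-transformed totals per nucleus were 2.51 to 21.9 times the usual TPM total (median 4.42), so a further scaling was applied that is not given in the sources used here. Read counts were not used here, so depth in reads is unknown, nuclei were not thinned to 1 depth, and no doublet caller was run.

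Values were returned to the linear scale and taken as log2(value + 1). A gene was detected in a nucleus above a value of 1. Nuclei were clustered with scanpy 1.11.5 (2000 variable genes without the 10 members, 20 components, 15 neighbours, Leiden resolution 1.0) and clusters were named from marker lists. Region and age were tested on means per preparation with limma 3.58.1 (R 4.3.3), with trend and Benjamini-Hochberg adjustment at 0.05, over genes detected in 20% of the nuclei of at least 1 preparation. Intervals for shares are 95% Wilson intervals and cover counting error only, and a count of 0 was read as up to 3 counts. The fits were tested on simulated data. All 10 members are named, and from the other lists those called in a region contrast or in the comparison of CA2-type nuclei, up to 8 per list by size. The 5 most alike genes are those with the highest mean correlation over the 4 CA preparations among genes detected in at least 10% of nuclei. Other list genes were chosen after their values were seen. The members, lists and tests were chosen with earlier results of these data known. Alternatives covered the log of the mean, pseudocounts, filters, covariates, normalization, blocks, the nuclei used and each preparation left out. The result of 1 listed gene is not reported here.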

Additional observations from a re-analysis of the deposited data

Results flagged for a closer look

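Spock1 in DG preparation 1 lay far from the other DG preparations. Its mean log2(value + 1) over excitatory-like nuclei was 1.54, against 0.41 to 0.57 in the other 3 preparations, a gap of 0.862 of the whole range, above the limit of Dixon's 95% test for 4 samples. This was 1 of 20 groups of 4 preparations examined, and chance flags about 1 in 20. DG preparation 1 held 19 pyramidal-like nuclei among its 111 excitatory-like ones, 15 of them with Spock1. In its granule-like nuclei alone Spock1 read 0.60, beside 0.18 to 0.55 in the others.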

How the results depend on the processing

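Of the alternative values for 49 single-gene results, 500 kept direction and side of the threshold, 30 lost the call, 20 gained it and 32 changed sign. The cause was not tested for any change below. The share of genes called in CA2/3 against CA1 (0.168%) was 0% with the log taken after averaging, 0.154% (33 genes against 19) with no filter, 1.43% with detected genes as a covariate, 0.0449% over all nuclei, 0.0773% over nuclei with at least 4000 genes, 0.265% with quantile normalization and 0.417% over pyramidal-like CA and granule-like DG nuclei alone. In CA2/3 against DG (7.83%) it was 1.19% with the log after averaging, 15.9% with the covariate, 4.14% with the replicate block and 16% over those nuclei alone. In CA1 against DG (11.6%) it was 2.29% with the log after averaging, 6.70% with the block and 18.1% over those nuclei. At 4 weeks (10.1%) it was 5.99% with the log after averaging and 4.12% with the block. At 2 years (0.141%) it was 0% with the log after averaging, 0.00869% with no filter, 1.63% with the covariate, 0.0659% with the block, 0.0655% over all nuclei, 0.0847% after rescaling to the TPM total and 0.489% with at least 4000 genes. Set against all nuclei with fewer than 2 CA2 members, CA2-type nuclei gave 0.157%. The members called in CA2/3 against CA1 (0) were 4 with the covariate, 2 with the block, 1 with quantile normalization and 3 over pyramidal-like and granule-like nuclei. In CA2/3 against DG (6) they were 1 with the log after averaging and 3 with no filter, and in CA1 against DG (1) they were 0 with no filter, 2 with the covariate (Bok and Homer3, both lower in CA1, while the Spock1 call was lost, adjusted p = 0.175), 0 with at least 4000 genes and 2 over pyramidal-like and granule-like nuclei. CA2-type nuclei numbered 0 with all 3 members required and 42 with at least 1.
Leaving out each preparation in turn gave 0.0177% to 0.660% of genes in CA2/3 against CA1, 2.97% to 12.8% in CA2/3 against DG, 5.63% to 18% in CA1 against DG, 5.55% to 12.1% at 4 weeks and 0.0473% to 0.463% at 2 years, with 0 to 4, 3 to 7, 0 to 1, 1 to 1 and 0 to 0 members. The sign changed for Rgs14 in CA2/3 against DG (-0.37 log after averaging, -0.71 covariate, -0.062 at least 4000 genes, -0.19 quantile, -0.13 pyramidal-like and granule-like nuclei). In CA1 against DG it changed for Bok (-0.56 log after averaging, -3.41 covariate, -0.23 all nuclei, -0.019 rescaled, -0.43 quantile, and -0.70 to 0.76 with a preparation left out), Amigo2 (-0.039 at least 4000 genes, -0.32 to 0.77 with one left out), Trps1 (-0.29 to 0.98), Homer3 (-1.59 to 0.084) and Pvrl3 (-0.56 covariate). At 4 weeks it changed for Trps1 (-0.25 log after averaging) and Homer3 (0.063 all nuclei, -0.59 to 0.15 with one left out). At 2 years it changed for Homer3 (-0.098 log after averaging, -0.045 covariate), Pvrl3 (-0.018 block, -0.022 all nuclei, -0.15 at least 4000 genes, -0.19 to 0.29 with one left out) and Rgs14 (-0.24 at least 4000 genes, -0.097 to 0.33 with one left out). In the CA2-type comparison it changed for Coch (-0.042 against fewer than 2) and Trps1 (-0.76 quantile). The numbers were not taken to pair the samples: deviations of same-numbered CA1 and CA2/3 preparations correlated at 0.414, and those of other same-numbered pairs at -0.173 to 0.129. With the replicate block Bok and Pvrl3 were called in CA2/3 against CA1 (limma adjusted p = 0.00934 and 0.0174), and Plagl1 and Amigo2 were not called in CA2/3 against DG (0.0985 and 0.0850). The rescaling and the limit of 4000 genes were chosen after seeing the data. The CA2-type comparison over CA1 and CA2/3 together was not run, since CA1 held 3 such nuclei.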
